A study of Rattus norvegicus with 9 samples.

Results

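The rat supraoptic nucleus was represented by 106 probe sets for 59 genes of the respiratory chain and the ATP synthase of mitochondria, out of 8740 probe sets that are not array controls. A probe set was taken when the platform annotation gives it a single gene symbol and that symbol opens with Nduf, Uqcr, Cyc1, Cycs, Atp5, Sdh and a letter from a to d, or Cox and a digit. They were grouped by symbol into complex I (46 probe sets, 26 genes), complex II (1 probe set, Sdha), complex III (7 probe sets, 4 genes), complex IV (30 probe sets, 15 genes), ATP synthase (17 probe sets, 10 genes) and assembly factors (4 probe sets for Ndufaf3 and Sdhaf2). The remaining probe set belongs to a pseudogene, Cox6c-ps1. Another 7 probe sets carry several symbols and are not covered, which leaves out cytochrome c (Cycs) and the Atp5mc ring subunits of ATP synthase. Of the 106, 96 probe sets for 58 genes had a mean signal of at least 23.1 over the 9 arrays and were tested with 5249 probe sets in all. The 10 dimmer ones, with means of 3.77 to 22.1, were 7 of complex I, 2 of complex IV (1 each of Cox6a2 and Cox8b) and the pseudogene.

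The supraoptic nucleus is a hypothalamic cell group whose large (magnocellular) neurons make vasopressin and oxytocin and secrete them from the posterior pituitary. Its RNA was measured on 9 Affymetrix arrays from Sprague Dawley rats, all male and 10 to 12 weeks old: 3 arrays of controls, 3 of rats dehydrated for 1 day and 3 of rats dehydrated for 3 days. The arrays of each group carry the letters a, b and c. The labels do not say whether arrays stand for separate animals or pools, so p-values measure only how these samples spread, and that spread may be technical. No allele, transgene or drug is named in the labels.

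The respiratory chain takes electrons from NADH at complex I and from succinate at complex II, passes them through ubiquinone to complex III, and on by cytochrome c to complex IV, which reduces oxygen to water. Complexes I, III and IV pump protons out of the mitochondrial matrix, and ATP synthase uses their return to make ATP. Most subunits are encoded in the nucleus and imported, while a few core subunits, among them COX1, COX2 and COX3, are encoded by mitochondrial DNA. Neurons spend much of this ATP on restoring ion gradients after firing, and magnocellular neurons fire and secrete more during water deprivation.

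All values are MAS5 signals, a summary of the probes of a probe set on a linear scale, and a level is compared only between arrays for the same probe set. The median signal of an array lay between 26.8 and 40.3. The upper end of the scale differed: the brightest signal was 2104.8 on control array c and 2238.9 on 1-day array c. It was 3867.3 to 4137.0 on arrays a and b of control and 1 day, and higher, at 4830.0 to 6294.9, on all 3-day arrays. This touches the members because 18 of the 96 tested had a mean signal of 1000 or more. Among all 251 tested probe sets that bright, the median log2 difference from control was 0.00 at 1 day and 0.22 at 3 days. Between 1 and 3 days their median was 0.23, and 22.7% of them were lower at 3 days. Markers of magnocellular neurons were present. Each marker gene here was read only from its brightest probe set with a single symbol. The summed signal of 6 such genes, Avp and Oxt among them, ran from 4005 to 7976 over the control arrays. It ran from 4207 to 8898 over the 1-day arrays and from 10140 to 12740 over the 3-day arrays. Oxt alone read 208.3 on control array c and 272.0 on 1-day array c, against 2331.1 to 4356.1 on the other arrays. By log2 difference, 5 of the 6 genes were higher than control at 3 days, and Scg2 stood at -0.04. Other marker lists, also as summed signals, are given for the same groups in that order. For 6 general neuron genes the sums were 4232 to 5576, 4060 to 5527 and 5245 to 5853. For 7 astrocyte genes the sums were 5737 to 9398, 4794 to 10330 and 8684 to 11760. For 5 oligodendrocyte genes they were 4172 to 7255, 3084 to 7662 and 2849 to 7628. For 6 endothelial and blood genes they were 2738 to 3068, 3369 to 4597 and 1651 to 2266, nearly all of it from globin. The globin genes Hbb and Hbb-b1 alone gave 2504 to 2842, 3162 to 4352 and 1410 to 2040 without overlap, while the endothelial genes Flt1, Pecam1 and Vwf gave 90.2 to 139.8, 79.2 to 130.5 and 107.0 to 158.6, which overlapped. For 6 microglial genes they were 224.0 to 318.7, 262.8 to 437.5 and 236.4 to 308.9, with 4 of the genes under the filter, Aif1, Cd74, Csf1r and Itgam. The part of these cells in the members' values was not tested. In tissue RNA, fewer cells of a type and less RNA per cell cannot be told apart.

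No member passed limma's test in any comparison (adjusted p under 0.05, Benjamini-Hochberg over the 5249), and neither did any other tested probe set: 0.0% were called in each comparison and in the F test over the 3 groups. The number of the 96 members with an unadjusted p under 0.05 was 0 for 1 day against control, 2 for 3 days against control and 3 for 3 days against 1 day, beside 1.01%, 1.71% and 1.83% of all tested probe sets. In the F test 1 member was under that value, beside 1.05% of all tested. With the letter fitted as a block, since same-lettered arrays vary together, these numbers were 1, 6, 6 and 3, beside 2.59%, 5.14%, 5.24% and 3.45% of all tested under the same block, so the counts were higher over all probe sets and not the members alone. Again no adjusted p passed, and the smallest of a member was 0.958, 0.874 and 0.77 in the 3 comparisons. The differences below are therefore described, and none of them is a called change.

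At 1 day, 65 of the 96 members had a lower fitted level than in control (67.7%, beside 47.3% of all tested), with a median log2 fold change of -0.11 against 0.02 over all tested. At 3 days 56 were lower than in control (58.3%, beside 48.3%), with a median of -0.08 against 0.02. Between 1 and 3 days 40 were lower (41.7%, beside 49.9%), with a median of 0.06 against 0.00. The comparisons with control share the control arrays. These medians were not the same in the 3 lettered sets of arrays: for 1 day against control they were -0.19 for letter a, -0.10 for b and 0.05 for c, and for 3 days -0.18, 0.03 and 0.02. Without 1-day array a the 1-day median was 0.00, and without 3-day array a the 3-day median was 0.08. Beta-actin's 3' signal over its 5' signal, a measure of RNA or labelling quality, ran from 0.74 to 1.07 over the control arrays, from 1.13 to 1.48 over the 1-day arrays and from 0.99 to 1.43 over the 3-day arrays. For Gapdh it was 0.93 to 1.09, 0.85 to 1.05 and 0.89 to 1.55. The part of RNA quality in the members' values was not tested.

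**Figure D1:**
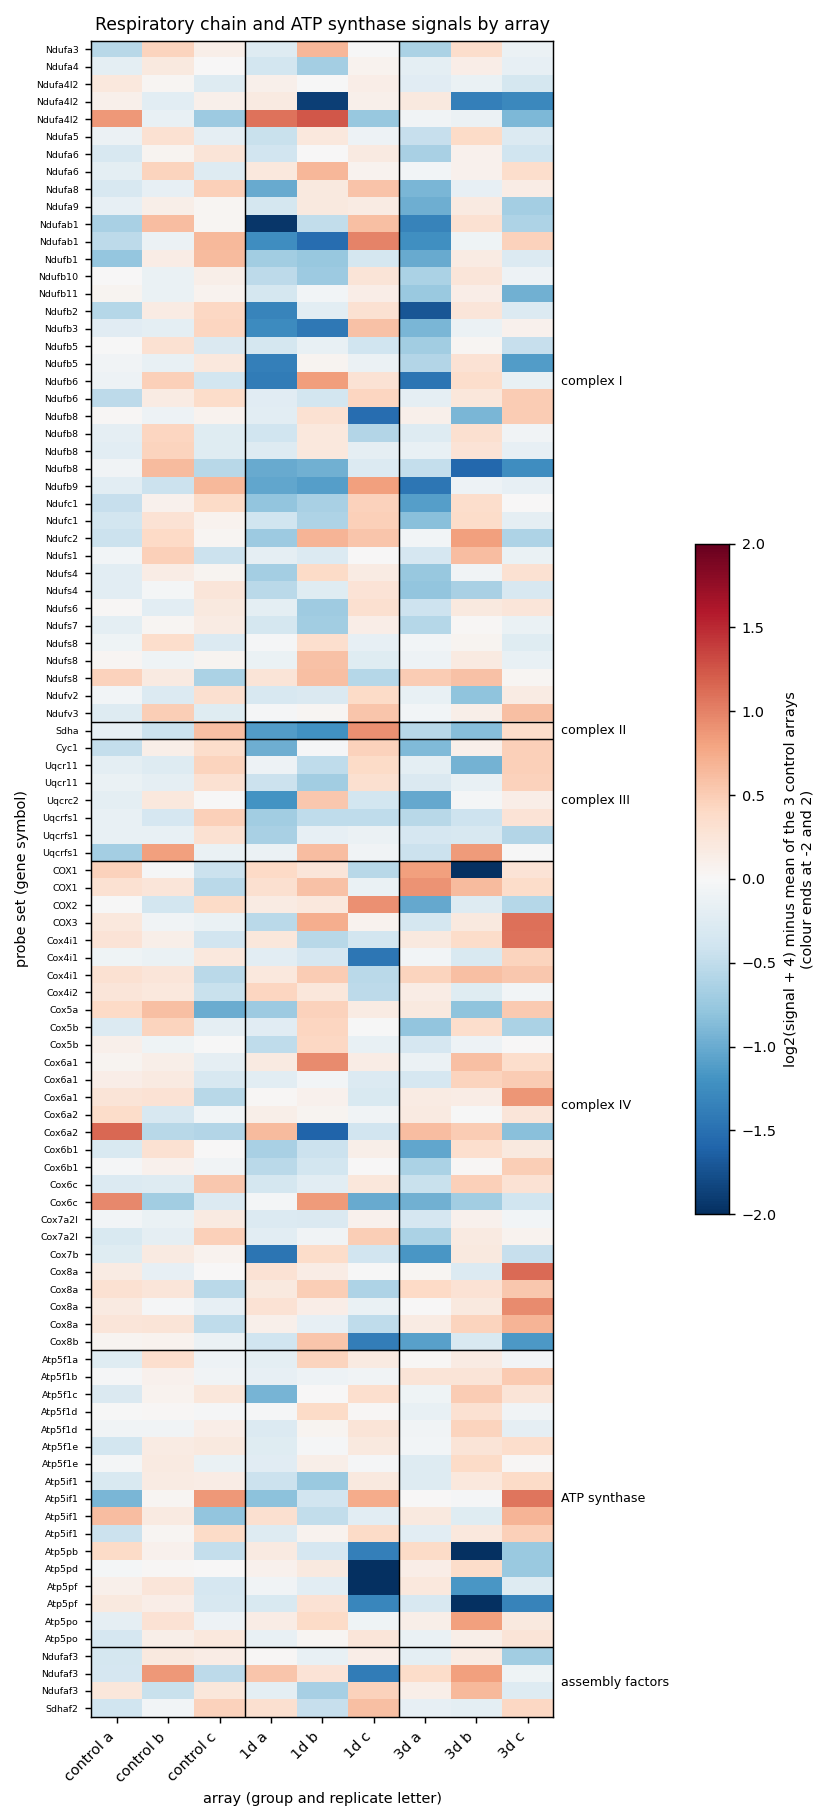
Each row is 1 of the 96 tested probe sets and each column 1 of the 9 arrays, with lines between groups and between complexes; colour gives log2(signal + 4) minus the mean of the 3 control arrays, with the colour scale ending at -2 and 2. Columns with the same letter resemble each other, as for the many blue complex I rows on 1-day array a and 3-day array a, and the darkest blue cells include Atp5pd and Atp5pf on 1-day array c and COX1, Atp5pb and Atp5pf on 3-day array b.

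Few members had groups that lay apart. At 1 day, 1 member had all its arrays above control and 3 had all below (1.04% and 3.12%), beside 2.63% and 1.58% of all tested probe sets. At 3 days the numbers were 3 above and 4 below control (3.12% and 4.17%), beside 4.72% and 3.01%. Between 1 and 3 days they were 3 higher and 2 lower at 3 days (3.12% and 2.08%), beside 3.05% and 2.67%. In all 3 letter pairs, 13 members were lower and 8 higher at 1 day (13.5% and 8.33%, beside 9.28% and 16.8% of all tested). At 3 days 17 were lower and 12 higher than control (17.7% and 12.5%, beside 13.2% and 16.9%), and between the days 11 were lower and 18 higher (11.5% and 18.8%, beside 13.0% and 12.5%).

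Complex I is the large entry point for electrons from NADH. Of its 39 tested probe sets, 30 were lower than control at 1 day (median log2 fold change -0.15) and 32 at 3 days (median -0.24), and none was called. With 1 probe set per gene, 21 of 26 genes were lower at 1 day and 22 at 3 days. The 1-day median was -0.22 within letter a, -0.21 within b and 0.08 within c, where 12 of 39 were lower, so its direction turned in letter c. The 3-day median was -0.41 within letter a, 0.02 within b and -0.21 within c, so arrays of letter b did not show it. Without 3-day array a the median was -0.01, with 21 of 39 lower, and without 1-day array a the 1-day median was 0.02, with 17 lower. Between 1 and 3 days 22 of 39 were lower, with a median of -0.07.

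Ndufs4, an accessory subunit needed for a stable complex I, was the complex I member whose 3-day and control arrays did not overlap. Its probe set rc_AI013297_g_at read 141.4, 160.2 and 196.3 in control (a, b, c), 112.4, 139.1 and 198.9 at 1 day, and 93.4, 103.1 and 130.4 at 3 days. Letters a, b and c kept the same order in each group, and each 3-day array lay below its control by 0.58, 0.62 and 0.58 on the log2 scale. The fitted 3-day difference was -0.59 ± 0.28 (SE), 1.51-fold lower, with an unadjusted limma p of 0.0628, or 0.0111 with the letter block (adjusted p 1.0 and 0.874). The other tested Ndufs4 probe set, rc_AI013297_at, differed by -0.18.

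Ndufb8, an accessory subunit of the membrane arm, had the largest 3-day difference of complex I, at a dim probe set. For rc_AA999168_at the control signals were 68.7, 114.2 and 48.1, the 1-day signals 34.2, 35.3 and 59.3, and the 3-day signals 50.8, 21.7 and 28.5. The highest 3-day array lay above the lowest control array, so the groups overlapped. The fitted difference was -0.75 ± 0.43 at 1 day and -1.10 ± 0.43 at 3 days, with unadjusted limma p of 0.108 and 0.0261 and adjusted p of 1.0 for both. The 3 brighter Ndufb8 probe sets differed from control by -0.10 to 0.00 at 3 days, so the gene's probe sets disagreed in size.

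Some other complex I genes had probe sets that differed in sign in a comparison. Ndufa6, an accessory subunit, was lower at 3 days by one probe set (-0.32, rc_AA819547_at) and higher by the other (0.13, rc_AI229924_at). The latter had the smallest p among complex I members higher at 1 day, at 0.32 ± 0.30 with an unadjusted limma p of 0.311. Ndufs8, a core subunit with iron-sulphur clusters, had 3-day differences of -0.08, -0.02 and 0.38. Ndufb6 differed by -0.42 and 0.18. Ndufb5 differed by -0.07 and 0.00 between 1 and 3 days, and Ndufc1 by -0.03 and 0.07, all smaller than their SEs of 0.29 to 0.44. Against control the probe sets of these genes went the same way. Ndufb5 stood at -0.30 and -0.48 at 1 day and at -0.38 and -0.47 at 3 days. Ndufc1 stood at -0.32 and -0.18 at 1 day and at -0.25 and -0.21 at 3 days. Ndufa9, which helps join the arms of the complex, was -0.49 ± 0.33 between 1 and 3 days, the smallest p of complex I there among lower members (0.16).

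Ndufa4 was first assigned to complex I and later placed in complex IV, and it is grouped here by its symbol. It read 596.7, 782.7 and 693.1 in control, 532.7, 427.3 and 724.1 at 1 day and 597.6, 751.4 and 610.4 at 3 days, with overlap among all groups. Ndufa4l2, its paralog, is known as a gene induced in low oxygen. The probe set AA684929_f_at read 120.3, 106.6 and 85.4 in control, 111.5, 102.3 and 113.0 at 1 day and 88.0, 93.9 and 79.6 at 3 days, so the 3-day arrays lay below the 1-day arrays. That difference was -0.31 ± 0.25, with an unadjusted limma p of 0.235 and adjusted p of 0.998. All 3 tested Ndufa4l2 probe sets were lower at 3 days than in control, by 0.24 to 0.82, with SEs of 0.25 to 0.64. At 1 day they ranged from -0.53 to 0.53. The dimmest, AA685376_f_at, had means of 24.73 in control, 39.83 at 1 day and 16.73 at 3 days. It thus passed the filter of 23.1 only through control and 1 day. The untested AA686870_f_at and AA686870_i_at had means of 11.93 and 7.633 in control and 13.07 and 4.267 at 3 days.

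Sdha is the flavoprotein of complex II, the enzyme shared by the respiratory chain and the citric acid cycle. It read 259.1, 214.7 and 447.4 in control, 132.3, 123.5 and 552.8 at 1 day and 196.7, 159.9 and 377.8 at 3 days. In every group the array of letter c was the highest, and the 3 arrays of letter c lay above the other 6. The fitted difference from control was -0.47 ± 0.55 at 1 day and -0.35 ± 0.55 at 3 days, with unadjusted limma p of 0.41 and 0.542. Within letters, 3 days was lower than control in all 3 pairs (-0.39, -0.42 and -0.24), and with the letter block the p was 0.212. From 1 to 3 days the difference was 0.13, and it took either sign when single arrays were left out.

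Complex III hands electrons from ubiquinol to cytochrome c. Of its 7 probe sets 6 were lower than control at 1 day (median -0.27) and 5 at 3 days (median -0.22), and 3 were lower at 3 days than at 1 day (median 0.03). The 1-day median within letters a, b and c was -0.50, -0.17 and -0.06. Without control array c the 3-day median was 0.01.

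Uqcrfs1, the Rieske iron-sulphur protein of the complex, had 3 probe sets that gave differing values. The probe set M24542cds_g_at read 812.8, 807.3 and 1105.5 in control, 571.4, 805.9 and 830.0 at 1 day and 707.3, 715.4 and 595.0 at 3 days, so all 3-day arrays lay below all control arrays. The 3-day difference was -0.42 ± 0.25, 1.34-fold lower, with an unadjusted limma p of 0.115. For M24542cds_at it was the 1-day arrays (217.1, 248.9 and 249.9) that lay below the control arrays (321.5, 281.3 and 495.6), with a difference of -0.57 ± 0.30 and an unadjusted limma p of 0.0821, or 0.0219 with the letter block. Its 3-day arrays, at 241.0, 266.2 and 428.9, overlapped both. The third and dimmest, rc_AI103911_at, stood at 0.14 at both times. The adjusted p of these differences from control were at least 0.874, with or without the block.

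Cyc1, the cytochrome c1 of complex III, read 456.5, 692.1 and 808.3 in control, 322.2, 626.9 and 878.4 at 1 day and 342.7, 682.8 and 883.7 at 3 days. The order a, b, c was the same in each group, and the group means of 652.3 ± 179, 609.2 ± 279 and 636.4 ± 273 (SD, n = 3) differed by far less than the arrays within a group. Uqcr11, a small subunit, had 2 probe sets on which the 3 arrays of letter c lay above the other 6. Its 3-day differences were -0.22 and 0.01. The remaining member, the core subunit Uqcrc2, differed by -0.34 at 1 day and -0.31 at 3 days.

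**Figure D2:**
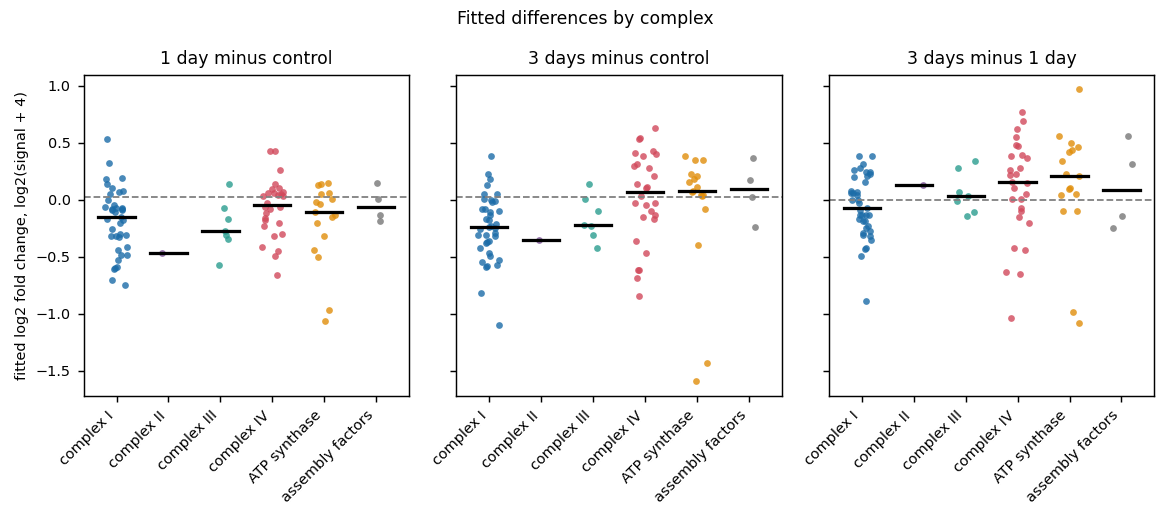
Each point is the fitted log2 fold change of 1 tested probe set, by complex, in the 3 comparisons; black bars are medians and the dashed line is the median of all 5249 tested. Complex I medians lie at -0.15 and -0.24 against control, while those of complex IV and ATP synthase lie at 0.06 and 0.08 at 3 days, with a few ATP synthase points near or below -1.

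Complex IV, cytochrome c oxidase, reduces oxygen. Of its 28 tested probe sets 15 were lower than control at 1 day (median -0.05), 13 at 3 days (median 0.06) and 9 at 3 days against 1 day (median 0.16). The last median differed by letter: it was -0.06 within a, -0.02 within b and 0.47 within c, and it was 0.00 without 3-day array c. The 3-day median against control was -0.19, 0.09 and 0.46 within the letters, -0.10 without 3-day array c, and -0.03 when all arrays were given the same distribution by quantile normalization. Control array c and 1-day array c are those with the low upper end of the scale, and the 3-day arrays have the highest.

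The mitochondrially encoded subunits gave differing values. COX1, which holds the site where oxygen is reduced, read 2451.4, 2336.6 and 1357.7 in control at probe set rc_AA893485_g_at, 2483.1, 2987.0 and 1808.5 at 1 day, and 3683.6, 3083.2 and 2565.0 at 3 days. The 3-day arrays lay above all control arrays, and letter c was the lowest of each group. The difference was 0.63 ± 0.30, 1.55-fold higher, with an unadjusted limma p of 0.0624 and 0.0151 with the letter block (adjusted p 1.0 and 0.874). It was 0.26 under quantile normalization, and 0.36 without control array c and 1-day array c. The other COX1 probe set, rc_AA850885_s_at, read 4193.4, 307.8 and 2876.5 at 3 days, so 3-day array b stood far below its partners, and its control arrays were 3271.6, 2353.4 and 1760.2.

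COX2, the subunit that takes electrons from cytochrome c, had the smallest unadjusted p of all members between 1 and 3 days. It read 1013.0, 785.1 and 1330.6 in control, 1136.7, 1178.1 and 1923.7 at 1 day and 499.5, 852.4 and 687.1 at 3 days. Every 3-day array lay below every 1-day array, while control overlapped both. The difference between the days was -1.04 ± 0.31, 2.06-fold lower at 3 days, with unadjusted limma p of 0.00673 and 0.00272 with the letter block (adjusted p 0.998 and 0.77). It lay between -1.29 and -0.80 over all alternatives. Against control COX2 stood at 0.43 ± 0.31 at 1 day and -0.62 ± 0.31 at 3 days (unadjusted limma p 0.199 and 0.0744). COX3, the third core subunit, differed by 0.09 and 0.31, with 3-day arrays spread from 1601.0 to 4374.5.

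Among nuclear subunits, Cox4i1, the common form of subunit IV, had 3 probe sets that were all higher at 3 days than at 1 day, by 0.48 to 0.77. Within letters these differences were -0.04 to 0.24 for a, 0.02 to 0.91 for b and 1.09 to 1.90 for c. For rc_AA818226_s_at the signals were 2481.1, 2357.4 and 1373.3 in control, 2310.1, 2841.5 and 1375.3 at 1 day and 2730.0, 3051.6 and 2923.1 at 3 days. All 3-day arrays were above control, with a difference of 0.53 ± 0.32 (unadjusted limma p 0.128). That difference was 0.26 without control array c and 1-day array c and 0.18 under quantile normalization. The probe set J05425cds_s_at differed by 0.77 ± 0.32 between the days (unadjusted limma p 0.0343, adjusted p 0.998), with overlapping arrays. The probe set X54081mRNA_i_at was lower at 1 day, at 840.9, 771.3 and 352.3 against 913.9, 889.3 and 1124.9 in control. Its difference of -0.66 was -0.16 without the c arrays of both groups. Cox4i2, the form linked to low oxygen, stood at 0.05 and -0.05 against control.

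The liver-type and heart-type forms of subunits VIa and VIII were both on the array. Cox6a1, the widespread form, differed by 0.21 to 0.40 at 3 days over 3 probe sets. Within letters the Cox6a1 differences from control were -0.47 to -0.09 for a, -0.14 to 0.48 for b and 0.52 to 1.44 for c. Its bright probe set rc_AI104520_s_at read 2067.3, 2145.0 and 1639.3 at 1 day and 2278.2, 2248.4 and 3745.5 at 3 days, without overlap, a difference of 0.47 ± 0.31 that was 0.11 under quantile normalization. The dim probe set X72757_at was above control at 1 day (67.7, 118.1 and 66.7 against 62.1, 64.7 and 52.3 in control), at 0.43 ± 0.32. Cox6a2, the heart and muscle form, differed by 0.14 and 0.10 at 3 days at its 2 tested probe sets.

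Cox8a, the widespread form of subunit VIII, was higher at 3 days than in control on all 4 probe sets, by 0.30 to 0.43. It was higher than at 1 day by 0.16 to 0.62. Within letters, the 3-day difference from control was 1.08 to 1.18 for c, and -0.17 to 0.21 for a and b. The 4 probe sets were read on the same arrays. The probe set rc_AI102505_g_at read 2421.2, 2448.2 and 1445.1 in control, 2185.1, 1823.7 and 1431.8 at 1 day and 2288.1, 2782.6 and 3282.7 at 3 days. The 3-day arrays lay above the 1-day arrays and overlapped control. The difference between the days was 0.62 ± 0.29 (unadjusted limma p 0.0543), 0.32 under quantile normalization. Cox8b, the heart and muscle form, read 39.5, 39.9 and 34.5 in control, 27.9, 57.6 and 12.0 at 1 day and 15.7, 30.1 and 14.9 at 3 days. The 3-day arrays lay below control by -0.84 ± 0.52 (unadjusted limma p 0.134), on a probe set close to the level where testing began. The brown fat and muscle markers Ucp1, Ckm, Acta1 and Myh7 gave sums from 141.4 to 184.4 over the control arrays, 172.8 to 224.6 over the 1-day arrays and 128.3 to 250.0 over the 3-day arrays, and the part of such tissue was not tested.

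The rest of complex IV stood mostly below control, with SEs of 0.23 to 0.57. Cox7a2l, a factor that joins complexes III and IV into supercomplexes, differed by -0.16 and 0.07 at 1 day and by -0.10 and -0.13 at 3 days. Cox6c had probe sets at 0.11 and -0.69 at 3 days. Cox5b had 1-day values of 0.06 and -0.08 and 3-day values of -0.36 and -0.15. Cox6b1 stood at -0.32 and -0.30 at 1 day and at -0.17 and -0.03 at 3 days. Cox7b was -0.49 at 1 day and -0.47 at 3 days, and Cox5a was -0.03 at both times.

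ATP synthase makes ATP from the proton gradient. Of its 17 probe sets 11 were lower than control at 1 day (median -0.11), 4 at 3 days (median 0.08) and 4 at 3 days against 1 day (median 0.21). The median between the days was 0.17, 0.25 and 0.15 within letters a, b and c. Without 1-day array a the 1-day median was 0.09, and without control array a the 3-day median was -0.04.

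Atp5f1b, the catalytic beta subunit, was the member whose groups lay apart in all 3 comparisons. It read 1591.8, 1713.8 and 1533.9 in control, 1445.5, 1496.5 and 1532.8 at 1 day and 1926.3, 1933.6 and 2328.3 at 3 days. The 1-day arrays were the lowest and the 3-day arrays the highest, although the highest 1-day and lowest control signals almost met. The means were 1613 ± 91.8, 1492 ± 43.9 and 2063 ± 230 (SD, n = 3). Fitted differences were -0.11 ± 0.21 at 1 day, 0.35 ± 0.21 at 3 days (1.27-fold higher) and 0.46 ± 0.21 between the days (1.38-fold), with unadjusted limma p of 0.603, 0.122 and 0.0495 and adjusted p of at least 0.998. Under quantile normalization the 3-day difference from control was 0.03 and that between the days 0.15.

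The stalk subunits that hold the catalytic head in place gave some of the widest values. Atp5pf, coupling factor 6, read 259.3, 248.9 and 180.2 in control, 182.1, 278.7 and 88.9 at 1 day and 180.0, 33.5 and 87.4 at 3 days at X54510_g_at. The 3-day arrays lay below control, though array a missed control array c by a fraction of a unit. The difference was -1.43 ± 0.55, 2.69-fold lower, with unadjusted limma p of 0.0251 and adjusted p of 1.0, and it ranged from -1.98 to -0.83 over the alternatives. The other Atp5pf probe set, X54510_at, had its lowest signal, 65.7, on 1-day array c, against 335.9 to 501.6 in control, and 187.7 on 3-day array b. Its difference was -0.97 ± 0.61 at 1 day, and -0.31 without the c arrays of control and 1 day.

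The stalk subunits Atp5pd and Atp5pb, chosen for mention after their values were seen, had 1 low array each. The first read 38.5 on 1-day array c and 271.8 to 594.8 on the other 8. Atp5pb, the second, read 10.1 on 3-day array b and 111.3 to 384.4 elsewhere. Their differences of -1.06 ± 0.78 at 1 day and -1.59 ± 0.96 at 3 days rest on these arrays. The remaining subunits stayed closer to control. Atp5f1d, the delta subunit, was 0.13 ± 0.23 at 1 day, the smallest p among ATP synthase members higher then. Atp5if1, which inhibits the enzyme when it runs backward, was higher at 3 days than in control on all 4 probe sets, by 0.11 to 0.35. The SEs of these differences were 0.30 to 0.59. The probe sets D13122_i_at and M35300_f_at were dim, with mean signals of 32.8 and 38.8.

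**Figure D3:**
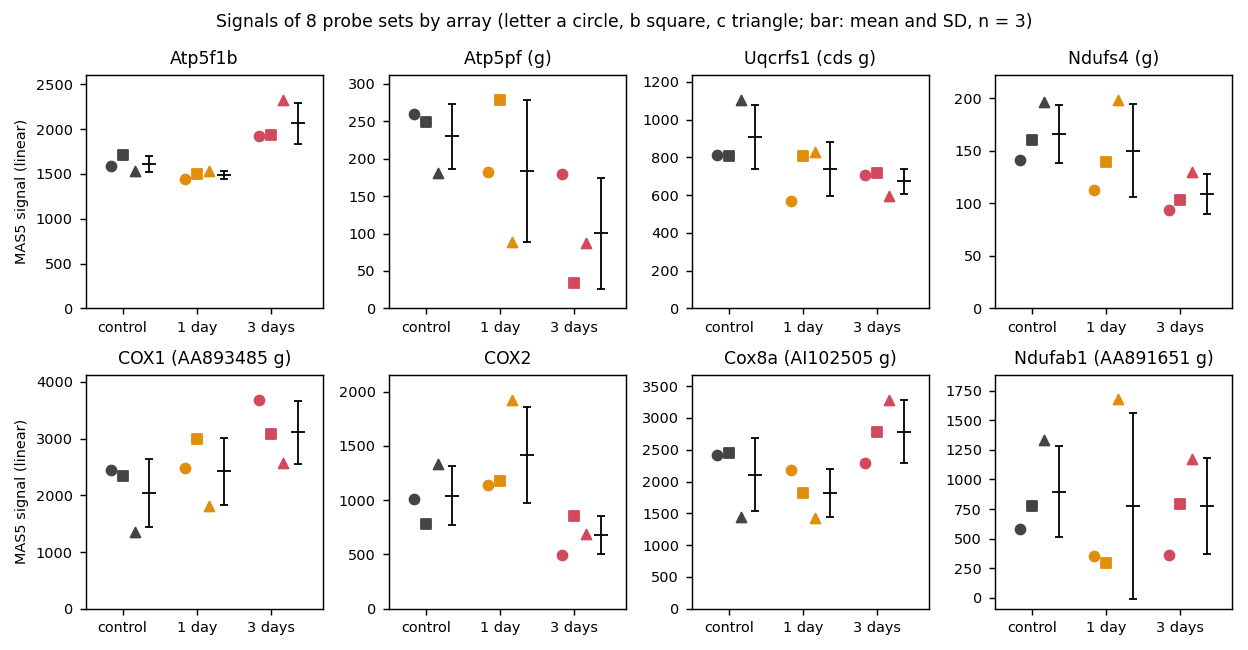
MAS5 signals of 8 probe sets on each array, by group; symbols give the replicate letter, and the bar beside each group is the mean with SD (n = 3). Atp5f1b separates the 3 groups, Ndufs4 and Uqcrfs1 lie below control at 3 days, COX2 lies lower at 3 days than at 1 day, and Ndufab1 is highest on letter c in every group.

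The assembly factors help build complexes and are not part of them. Ndufaf3, which acts on complex I, had 3-day differences of -0.24, 0.17 and 0.37 at its 3 probe sets, and Sdhaf2, which attaches the flavin of Sdha, stood at 0.15 at 1 day and 0.02 at 3 days. Over all members, 26 genes had several tested probe sets. By the sign of the unrounded fitted differences, all probe sets of a gene went one way in 15 genes at 1 day, 18 at 3 days and 12 between the days, so a single probe set is a weak guide to its gene here.

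The replicate letter accounted for more of the members' variation than the days of dehydration did. On the log2 scale the letter took a median of 47.9% of a member's variance over the 9 arrays and the group 12.4%; over all tested probe sets these were 43.6% and 15.7%. The letter took more than the group in 77 of the 96 members (80.2%, beside 73.7% of all tested). By complex the letter's median share was 57.0% in complex I, 78.4% in complex III, 40.5% in complex IV and 62.1% in ATP synthase. What the letter marks is not given in the labels.

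Members separated by letter in different ways. On 12 of the 96 the 3 arrays of letter a lay below the other 6 (12.5%, beside 4.36% of all tested), among them Cyc1, Ndufb2, Ndufa8 and Atp5f1c. On 12 the arrays of letter b lay above the other 6 (beside 7.77%), among them Ndufa5, Cox7b and Atp5po. On another 12 those of letter c lay above (beside 5.58%), among them Sdha, Ndufv2, Ndufb3 and both Uqcr11 probe sets. The opposite sides held fewer members than the background: letter a lay above on 3 (3.12%, beside 8.04%), letter b below on 1 (1.04%, beside 4.13%) and letter c below on 3 (3.12%, beside 5.79%). Ndufab1, the acyl carrier protein that is also a complex I subunit, shows the size: rc_AA891651_g_at read 584.8, 777.7 and 1329.8 in control, 355.6, 292.4 and 1682.3 at 1 day and 357.6, 793.0 and 1172.1 at 3 days. The letter c array was the highest of each group. These genes were picked as examples after their values were seen.

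**Figure D4:**
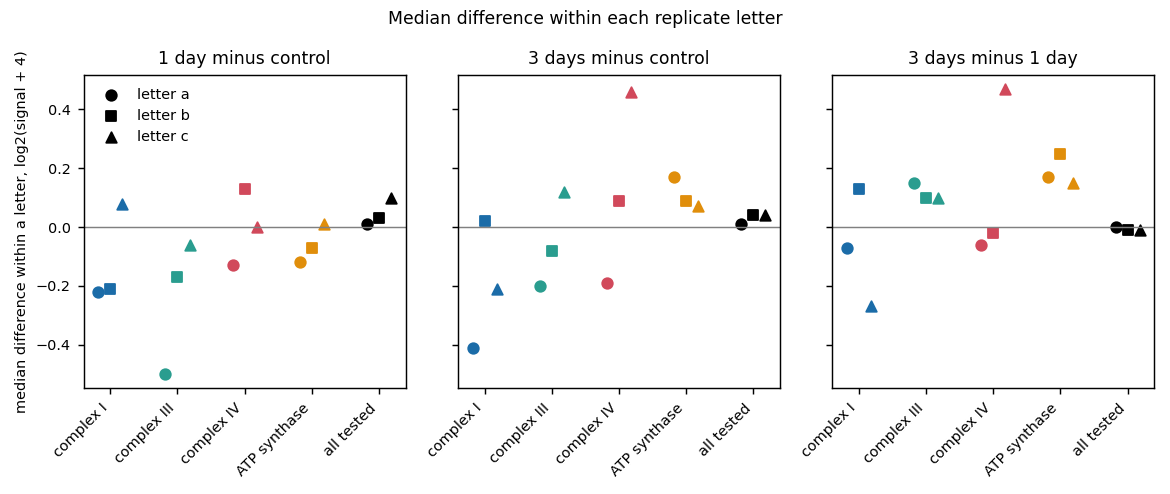
Median difference of each complex within replicate letter a (circle), b (square) and c (triangle), on the log2(signal + 4) scale, in the 3 comparisons, with all tested probe sets at the right. Complex IV spreads from -0.19 for letter a to 0.46 for c at 3 days and ATP synthase from 0.07 to 0.17, while the medians of all tested probe sets stay between -0.01 and 0.10.

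Genes around the chain were measured on a list of carriers, regulators and related proteins. Each gene was read only from its brightest probe set with a single symbol, so any other probe sets of these genes are not covered. None of them was called by limma in any comparison. An unadjusted p under 0.05 was found for Ckmt1 at 1 day, and for Slc25a20 and Esrra at 3 days against control and against 1 day. Of the 12 tested carriers and channels of the mitochondrial membranes, 8 were lower than control at 1 day (median -0.25) and 9 at 3 days (median -0.17). Slc25a5, an ADP/ATP carrier, read 957.3, 1061.1 and 858.1 in control and 722.0, 824.6 and 107.1 at 1 day, a difference of -1.24 ± 0.63 (unadjusted limma p 0.0743). Its sister Slc25a4 was 262.7 on the same 1-day array c and 1715.7 and 1768.8 on the other 1-day arrays, so both carriers were low on the array where Atp5pd and Atp5pf were low. The carnitine carrier Slc25a20 stood at -1.06 at 3 days (unadjusted limma p 0.0312).

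Ckmt1, the mitochondrial creatine kinase that passes the energy of ATP to creatine, was below control on every 1-day array. It read 662.5, 785.0 and 816.4 in control, 538.5, 458.5 and 426.6 at 1 day and 727.0, 643.6 and 563.5 at 3 days. The 1-day difference was -0.67 ± 0.22 with an unadjusted limma p of 0.0124 and an adjusted p of 1.0. Esrra, a nuclear receptor that drives respiratory chain genes, read 50.3, 34.3 and 47.4 in control and 13.5, 6.7 and 12.9 at 3 days without overlap, -1.69 ± 0.51, with an unadjusted limma p of 0.00726 and an adjusted p of 1.0. Its 3-day signals lay under the mean of 23.1 that testing required. Txn2, the mitochondrial thioredoxin, stood at 0.43 and 0.48 against control (unadjusted limma p 0.111 and 0.0754). The electron entry genes Etfa, Etfdh and Gpd2 were between -0.33 and 0.15 against control, and Phb2 at -0.11 and -0.03. Of 10 mitochondrially encoded subunits outside the chosen symbols, 0 were found among the probe sets with a single gene symbol. Probe sets with several symbols or none were not searched.

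Promoters of the nuclear members were read to show what the genes share in sequence. RefSeq windows of the GRCr8 assembly, from 250 bases before to 50 after the start, were matched for 47 of the 56 genes left when the mitochondrially encoded COX1, COX2 and COX3 are set aside. Each motif was searched on both strands. The centre of the nuclear respiratory factor 1 palindrome, CGCATGCG, was in 2 of 47 windows (4.26%, beside 1.81% of all 27457 promoters). The ETS motif bound by GA-binding protein, CCGGAAG, was in 10 (21.3%, beside 9.22%), and the SP1 motif GGGCGG in 21 (44.7%, beside 34.9%). The estrogen-related receptor motif TCAAGGTCA, the family of Esrra, was in 0 (beside 0.412%). The YY1 motif AAGATGG was in 13 (27.7%, beside 7.3%), 8 of them among the 24 complex I windows.

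The 2 genes with the respiratory factor motif, both for stalk subunits of ATP synthase, and Cox8a, with a pair of ETS motifs, are printed here. The stretch just before the start of Atp5pf is chr11:37375102-37375281, that of Atp5po chr11:44657484-44657563 and that of Cox8a chr1:213833624-213833703 of GRCr8, each read 5' to 3' on the minus strand. Capitals mark CGCATGCG, AAGATGG and CCGGAAG in order in Atp5pf, CGCATGCG in Atp5po, and the reverse complement of the ETS motif, CTTCCGG, at both places in Cox8a.
Atp5pf: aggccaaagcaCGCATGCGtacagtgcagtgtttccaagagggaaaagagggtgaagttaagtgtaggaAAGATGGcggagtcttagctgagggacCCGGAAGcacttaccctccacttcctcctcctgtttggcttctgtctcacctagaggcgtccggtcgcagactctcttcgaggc
Atp5po: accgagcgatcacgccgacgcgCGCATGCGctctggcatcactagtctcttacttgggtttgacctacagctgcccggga
Cox8a: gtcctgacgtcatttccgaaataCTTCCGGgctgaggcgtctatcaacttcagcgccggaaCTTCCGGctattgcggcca
The motifs of Atp5pf begin 169, 111 and 84 bases before the start, that of Atp5po 58 bases before it and those of Cox8a 57 and 19 bases before it. Atp5po, which shares the respiratory factor motif with Atp5pf, stood at 0.38 and 0.08 at 3 days on its 2 probe sets, while Atp5pf stood at -0.40 and -1.43. A match describes these letters only and is no evidence of binding.

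A further count was made after the motif positions were seen. AAGATGG on the sense strand within the 50 bases after the start was found in 8 of the 47 windows (17.0%), beside 476 of 27457 promoters (1.73%). The genes are Atp5po, Ndufa3, Ndufa6, Ndufa9, Ndufb8, Ndufs4, Ndufs6 and Ndufs7. The motif holds the letters ATG, and the share of start codons among these matches was not tested.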

How the data were processed

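The authors deposited linear intensities, 1 per probe set and array. Per the submitters' processing notes these come from MAS5, whose version was not known here. The mean of each array after trimming 2% at each end was 100.1, so no further scaling was applied. Gene names are those of the platform annotation; 102 of the 106 members' gene IDs are in RefSeq. From the intensities log2(signal + 4) was computed, so fold changes of dim probe sets are understated. Probe sets with a mean under 23.1 (the 40th percentile) were left out. limma 3.58.1 in R 4.3.3 fitted the 3 groups to all 9 arrays with an intensity trend (6 residual degrees of freedom, two-sided, Benjamini-Hochberg within each comparison, threshold 0.05). The fit was also run on simulated arrays. Those were drawn without a letter effect, so they do not show how the fit behaves on arrays that vary together by letter. The number of arrays limits the precision: the median SE of a member's log2 fold change was 0.33, and 0.25 with the block.

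The letters pair the arrays: after subtraction of group means, 9 of 9 same-letter pairs correlated (r 0.17 to 0.47), against -0.33 to 0.12 for other letters, so the letter was fitted as a block (4 residual degrees of freedom) beside each result.

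Probe sets were named per complex by the smallest p in each direction, by groups without overlap with the same sign in all 3 letter pairs, as mitochondrially encoded, complex II, Cyc1 or isoform members, or where probe sets of a gene differed in sign; listed neighbours by the smallest p. The members and lists were chosen with earlier results of these data known. Alternatives were other pseudocounts (1 and 16), filters, normalizations and variance priors, only the groups compared, 1 probe set per gene, the block and each array left out. Leaving out control array c and 1-day array c together was chosen after seeing the data. Figures used Python 3.11.15 and matplotlib 3.10.9.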

Additional observations from a re-analysis of the deposited data

How the results depend on the processing

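No alternative called a member or any other probe set. Members with an unadjusted p under 0.05 ranged from 0 to 4 at 1 day, 0 to 6 at 3 days and 1 to 7 between the days (0.0% to 4.17%, 0.0% to 6.25% and 1.04% to 7.29%). Over all tested the shares ranged from 0.629% to 3.45%, 1.14% to 5.14% and 1.31% to 6.12%. With the replicate block the smallest adjusted p of a member was 0.958, 0.874 and 0.77, and the pairing by letter changed no call. Leaving out single arrays moved the members' median from -0.15 to 0.08 at 3 days and from -0.07 to 0.25 between the days; the cause was not tested. Of 41 named values 35 kept their sign under every alternative. The 6 others took both signs when single arrays were left out: Uqcrfs1 rc_AI103911_at, from -0.19 to 0.55 at 1 day and from -0.22 to 0.54 at 3 days; Sdhaf2, from -0.07 to 0.46 at 1 day; Ndufaf3 rc_AI171562_at, from -0.43 to 0.13 at 1 day; and, between the days, Sdha, from -0.25 to 0.82, and Ndufaf3 U95162_at, from -0.04 to 0.93, which was also -0.04 without control array c and 1-day array c. The cause was not tested. Dim probe sets, with signals near the filter of 23.1, have the least certain values.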
